A study of Mus musculus with 4 samples.

Results

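The 10 genes described here encode the enzymes of mitochondrial fatty acid β-oxidation, and all 10 were found by symbol among the 23337 genes listed in RNA-seq libraries of mouse heart. They were taken from a fixed list of enzyme names with no filter on their measured values, but earlier results of these data were known. They are the acyl-CoA dehydrogenases Acadvl, Acadl, Acadm and Acads, the trifunctional protein subunits Hadha and Hadhb, the matrix enzymes Echs1, Hadh and Acaa2, and the auxiliary reductase Decr1. The study deleted PIMT, a coactivator-binding RNA cap methyltransferase listed in the files as Tgs1, in heart muscle cells, and compared the hearts with those of control mice.

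There were 4 libraries, 1 for each group, from PIMTfl/fl and csPIMT-/- mice of the C57BL6/J strain at 2 and at 6 months of age. PIMTfl/fl mice carry loxP sites around exons 3 and 4 of PIMT and no Cre, and served as controls. csPIMT-/- mice carry the same floxed alleles and a Cre driven by the α-MyHC promoter, which is active in cardiomyocytes from before birth, so that PIMT is kept in the other cells of the heart. Each library was made from pooled RNA of 5 hearts of male and female mice, so there was no replicate library of any group and no difference at a single age has a replicate check. The mice of the 2 ages were different animals.

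Fatty acids are the main fuel of the adult heart. After their entry into the mitochondrion as acyl-CoA, each turn of the β-oxidation spiral shortens the chain through a dehydrogenase, a hydratase, a second dehydrogenase and a thiolase, and releases acetyl-CoA, NADH and electrons bound to a flavoprotein. Different enzymes act on long, medium and short chains, and the nuclear receptor PPARα and its coactivators are known regulators of many of these genes.

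The libraries held 29823073 to 40705783 reads counted on genes. Tgs1 stood at 580 and 816 normalized counts in the controls of 2 and 6 months, and at 160 and 162 in the csPIMT-/- hearts of the same ages. In limma over both ages it was lower in csPIMT-/- hearts, with a log2 difference of -2.08 ± 0.329 (SE) and an adjusted p of 0.0142. Its ratios were 0.271 at 2 months and 0.194 at 6 months, or 0.639 and 0.525 after the trend of all genes with GC content was subtracted. The defining markers of cardiomyocytes were abundant in every library, with a sum over 10 genes of 1380567 to 1701098 normalized counts. Of these 10 genes limma called 1 higher and 1 lower in csPIMT-/- hearts. Myh7, the slow myosin heavy chain, rose with ratios of 4.10 at 2 months and 46.0 at 6 months (limma, adjusted p = 0.0218). Pln, which restrains the calcium pump of the sarcoplasmic reticulum, fell with ratios of 0.381 and 0.25 (limma, adjusted p = 0.0200), but its GC-adjusted ratios were 1.23 and 0.855.

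The pools differed in more than genotype, and 2 libraries stood apart. In the order control and csPIMT-/- at 2 months, then control and csPIMT-/- at 6 months, the sum of 5 atrial markers was 3549, 138766, 56048 and 31850 normalized counts. The 4 adipocyte markers summed in the same order to 10.4, 12076, 2759 and 2031 normalized counts, and Lep was at 0 in the control of 2 months. The 4 brown fat markers summed to 1940, 4451, 1125 and 2663. The defining gene Ucp1 made up 8.65, 1766, 93.2 and 12.5 normalized counts of this, and Cidea 1889, 2561, 1015 and 2600. The control of 2 months was therefore lowest in atrial and adipocyte markers, and the csPIMT-/- library of 2 months highest in all 3 of these sums. The share of male and female tissue also differed. Normalized counts of 4 Y-linked genes summed to 8087, 449, 1176 and 616, and Xist, the RNA of the inactive X chromosome, stood at 805, 6369, 25639 and 12856. Lung markers summed to 1472 normalized counts in the csPIMT-/- library of 2 months and to 34.6 to 61.4 in the other 3, where Sftpa1 was at 0 in both controls. In the same order of libraries the 4 leukocyte markers summed to 3954, 9555, 7673 and 12022, higher in the csPIMT-/- library at each age. In limma 2 of them, Cd68 and Csf1r, rose in csPIMT-/- hearts and Ptprc fell, although its GC-adjusted ratios were above 1, at 1.15 and 1.10. The 5 endothelial markers summed to 57863, 37296, 41112 and 42089, and Kdr and Tek of these fell in limma. Fibroblast markers summed in the same order to 258525, 184173, 134024 and 187323, and skeletal muscle markers to 447, 122, 106 and 412. The part of these marker differences in the enzyme values was not tested. The pair of 6 months holds neither library that stood apart, but its 2 libraries also differed in the marker values above. Among these were the atrial, brown fat, leukocyte, fibroblast, skeletal muscle, Y-linked and Xist values. The brown fat difference of this pair lay mostly in Cidea, while Ucp1 went the other way. The ratio at 2 months is given below for each enzyme also against the control of 6 months. That second ratio still rests on the csPIMT-/- library of 2 months and adds a difference in age.

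Each csPIMT-/- library was set against the PIMTfl/fl library of its age as a ratio of recovered reads, scaled by the median of ratios of that pair of libraries. The ratio therefore differs slightly from the quotient of the deposited normalized counts, which share 1 scale over the 4 libraries. The 95% interval given with a ratio is a Clopper-Pearson interval that covers counting error only, and holds none of the variation between mice or pools. The ratio of all genes varied with the GC content of the transcript, and the GC-adjusted ratio is that left after this trend was subtracted. Fewer cardiomyocytes and less RNA per cardiomyocyte cannot be told apart in such bulk samples.

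Across the 10 enzymes, transcripts were lower in csPIMT-/- hearts for 8 at each age, with a wide spread between genes. The median ratio was 0.755 at 2 months and 0.584 at 6 months, beside 0.980 and 0.977 for all genes. A ratio below 1 was seen in 51.1% of all 15152 genes compared at 2 months and in 50.9% of 15218 at 6 months. More than 2-fold lower was 1 enzyme at 2 months, Acadm, where 23% of all genes were. At 6 months there were 4, Acadl, Acadm, Hadha and Decr1, where 25.7% of all genes were. None was more than 2-fold higher, where 16.4% of all genes were at 2 months and 16% at 6 months. The count at 2 months lies below the share of all genes and that at 6 months above it.

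The genotype difference over both ages was tested with limma on the 4 libraries with age in the model, which leaves 1 residual degree of freedom. Acadl, Acadm, Hadhb and Decr1 fell in csPIMT-/- hearts at an adjusted p under 0.05, 4 of 10 enzymes, and none rose. Over all 14935 genes tested, 18% fell and 12.2% rose. Before adjustment 5 of the 10 had a p under 0.05. Of all 14935 genes, 3655 were lower and 3144 higher at that unadjusted level. On recovered reads edgeR called 3 of the 10 lower, where it called 16.8% of all genes, and DESeq2 called 5, where it called 20%. The calls rest on variance borrowed across genes, and 2 alternative limma fits ended all of them. After removal of the trend with GC content 0 genes passed, with 1552 lower and 1699 higher at an unadjusted p under 0.05. Without the mean trend of the variance 0 genes passed, with 3387 lower and 2543 higher at that unadjusted level.

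**Figure D1:**
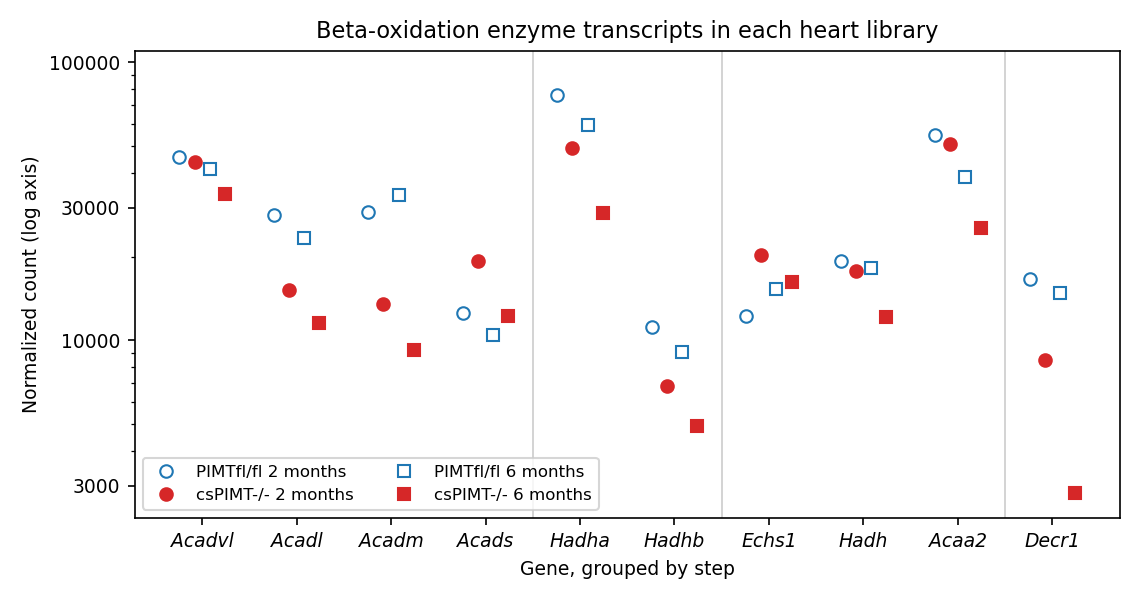
Normalized counts (log axis) of the 10 enzyme transcripts, 1 point per library, with open symbols for PIMTfl/fl and filled symbols for csPIMT-/- hearts, circles for 2 months and squares for 6 months. Grey lines separate the acyl-CoA dehydrogenases, the trifunctional protein, the matrix enzymes and the dienoyl-CoA reductase. Both csPIMT-/- points lie below both control points for Acadl, Acadm, Hadha, Hadhb, Hadh and Decr1.

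The acyl-CoA dehydrogenases catalyse the first step of each turn. Acadvl, bound to the inner membrane and acting on very long chains, had 45655 normalized counts in the control and 43838 in the csPIMT-/- library at 2 months, and 41269 and 33459 at 6 months. The csPIMT-/- library was the lower one at both ages, by little at 2 months. This gave a ratio of 0.941 (95% interval 0.929 to 0.954) at 2 months and of 0.790 (0.779 to 0.801) at 6 months. Against the control of 6 months the 2-month ratio was 1.03, on the other side of 1, and the GC-adjusted ratios were 0.708 and 0.572. Over both ages the log2 difference was -0.17 ± 0.261 (SE), and it did not pass (limma, adjusted p = 0.639). Of the exonic bases of Acadvl, 45.0% are overlapped by Dvl2 on the opposite strand, and the libraries were directional, but the strand setting of the counting is not given in the sources used here. Dvl2 itself was listed at only 283 to 539 normalized counts.

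Acadl, the long-chain enzyme, stood at 28238 normalized counts in the control and 15167 in the csPIMT-/- library at 2 months, and at 23379 and 11526 at 6 months. Both csPIMT-/- values lay below both controls. At 2 months its ratio came to 0.527 (0.516 to 0.538), and to 0.480 (0.470 to 0.491) at 6 months. The log2 difference over both ages was -0.95 ± 0.225 (SE), with an adjusted p of 0.0311 in limma. Its transcript has a low GC content of 45.1%, and its GC-adjusted ratios were 0.900 and 0.911. Against the control of 6 months the 2-month ratio was 0.628.

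Acadm, the medium-chain enzyme known as MCAD, had 28876 normalized counts in the control and 13495 in the csPIMT-/- library at 2 months, and 33186 and 9250 at 6 months. It was lower in csPIMT-/- hearts at both ages and under every scaling tried. The ratios of Acadl, Hadha, Hadhb, Hadh and Decr1 also stayed below 1 throughout, that of Hadhb at up to 0.998. The Acadm ratio came to 0.458 (0.448 to 0.468) at 2 months, and to 0.272 (0.265 to 0.278) at 6 months, or 0.393 and 0.314 against the control of the other age. The GC-adjusted ratios were 0.587 and 0.350. Over both ages Acadm fell by 1.46 ± 0.278 (SE) on the log2 scale (limma, adjusted p = 0.0196).

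Acads, the short-chain enzyme, went the other way, with 12531 normalized counts in the control and 19217 in the csPIMT-/- library at 2 months, and 10469 and 12274 at 6 months. The ratio was 1.5 (1.47 to 1.54) and 1.14 (1.11 to 1.17), but it was below 1 with the GC trend subtracted, at 0.922 and 0.685, and the 6-month ratio was 0.960 against the control of 2 months. The 2-month library gave 1.78 against the control of 6 months. Its transcript has the highest GC content of the 10, 60.1%. The log2 difference over both ages of 0.43 ± 0.232 (SE) did not pass (limma, adjusted p = 0.201).

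Hadha and Hadhb encode the α and β subunits of the mitochondrial trifunctional protein, which carries out the later steps for long chains on the inner membrane. The genes lie head to head on chromosome 5 of GRCm38, Hadha at chr5:30118304-30155162 on the minus strand and Hadhb at chr5:30155248-30184593 on the plus strand, with 85 bases between them. This shared stretch between the 2 genes is shown because both subunits are transcribed away from it. It is written on the plus strand, chr5:30155163-30155247, with matches to the GC box GGGCGG on that strand in capitals.
Hadha and Hadhb, between the starts: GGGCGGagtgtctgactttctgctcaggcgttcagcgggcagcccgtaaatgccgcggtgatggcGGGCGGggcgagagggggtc

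Hadha, the enzyme with the most reads in both controls but not in the csPIMT-/- libraries, stood at 76324 normalized counts in the control and 49070 in the csPIMT-/- library at 2 months, and 59328 and 28670 at 6 months. The csPIMT-/- library was lower at each age, and both lay below both controls. Expressed as a ratio this was 0.630 (0.623 to 0.638) at 2 months and 0.471 (0.464 to 0.477) at 6 months, and 0.590 and 0.419 with the GC trend subtracted. The 2-month ratio was 0.80 against the control of 6 months. The log2 difference over both ages, -0.83 ± 0.282 (SE), did not pass in limma (adjusted p = 0.0738).

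Hadhb stood at 11197 normalized counts in the control and 6850 in the csPIMT-/- library at 2 months, and at 9051 and 4934 at 6 months. The 2 csPIMT-/- values were again below both controls. Its ratio came to 0.60 (0.581 to 0.619) at 2 months, and to 0.531 (0.513 to 0.550) at 6 months. Over both ages Hadhb fell by 0.78 ± 0.209 (SE) on the log2 scale (limma, adjusted p = 0.0411), and in edgeR the adjusted p was 0.0540. Its GC-adjusted ratios were 0.998 and 0.971, and the 2-month ratio against the control of 6 months was 0.732.

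The Hadhb values are uncertain in level, because 62.4% of the 50-base windows of its transcript also occur in other annotated genes, chiefly the processed pseudogene Gm13910 at chr2:108948806-108950233 on the plus strand. Neither this pseudogene nor Gm9108, the other gene that shares windows, is listed in the files. The longest stretch of Hadhb exon 8 that is identical in Gm13910 runs over 188 bases, and its first 60, chr5:30173810-30173869 on the plus strand, are shown as an example of reads that cannot be placed by sequence alone.
Hadhb exon 8, identical in Gm13910: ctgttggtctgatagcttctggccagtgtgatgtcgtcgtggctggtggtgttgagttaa

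Within a library, the reads of Hadha over those of Hadhb differed little, at 6.82 and 7.16 in the control and csPIMT-/- library of 2 months and 6.56 and 5.81 in those of 6 months. This quotient is free of any scaling between libraries. Limma passed only Hadhb of the pair, but a difference between the 2 genes was not tested.

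The matrix enzymes carry the shorter chains through the remaining steps. Echs1, the short-chain enoyl-CoA hydratase, had 12188 normalized counts in the control and 20194 in the csPIMT-/- library at 2 months, and 15239 and 16198 at 6 months. It was higher in the csPIMT-/- library at 2 months, and at 6 months the difference was small. The csPIMT-/- library stood at 1.62 times its control (1.59 to 1.66) at 2 months and at 1.04 times (1.01 to 1.06) at 6 months. With the GC trend subtracted it stood at 1.63 and 0.997 times. The control library of 6 months was itself 1.19 times that of 2 months (1.17 to 1.22), and the 2-month ratio against it was 1.28. Over both ages the log2 difference was 0.42 ± 0.261 (SE) and did not pass (limma, adjusted p = 0.261).

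Hadh, the hydroxyacyl-CoA dehydrogenase of shorter chains, had 19222 normalized counts in the control and 17759 in the csPIMT-/- library at 2 months, and 18221 and 12110 at 6 months. The 2-month libraries were close, and the csPIMT-/- library of 6 months was the lowest. The ratio was 0.906 (0.887 to 0.925) and 0.647 (0.633 to 0.662), and 0.906 and 0.621 after GC adjustment. Set against the control of 6 months, the 2-month library gave 0.943. The log2 difference of -0.34 ± 0.245 (SE) did not pass (limma, adjusted p = 0.319).

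Acaa2, the thiolase that releases acetyl-CoA, had 54580 normalized counts in the control and 50739 in the csPIMT-/- library at 2 months, and 38573 and 25412 at 6 months. Both 6-month libraries were below both 2-month libraries. Its ratio came to 0.911 (0.900 to 0.923) at 2 months, and to 0.642 (0.632 to 0.652) at 6 months. The 2-month ratio turned to 1.27 against the control of 6 months and to 1.05 against both controls summed, while the GC-adjusted ratios were 0.740 and 0.494. Over both ages the log2 difference of -0.34 ± 0.278 (SE) did not pass (limma, adjusted p = 0.375).

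Decr1, the dienoyl-CoA reductase needed for the oxidation of unsaturated fatty acids, showed the lowest single ratio of the 10 enzymes. It had 16619 normalized counts in the control and 8478 in the csPIMT-/- library at 2 months, and 14783 and 2827 at 6 months. The csPIMT-/- library of 6 months stood far below the other 3. Its ratio came to 0.50 (0.486 to 0.514) at 2 months, just short of 2-fold, and to 0.186 (0.179 to 0.194) at 6 months. Over both ages Decr1 fell by 1.67 ± 0.371 (SE) on the log2 scale (limma, adjusted p = 0.0269). Its transcript has the lowest GC content of the 10, 44.4%, and its GC-adjusted ratios were 0.917 at 2 months and 0.388 at 6 months. With the control of 6 months the 2-month ratio was 0.555.

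**Figure D2:**
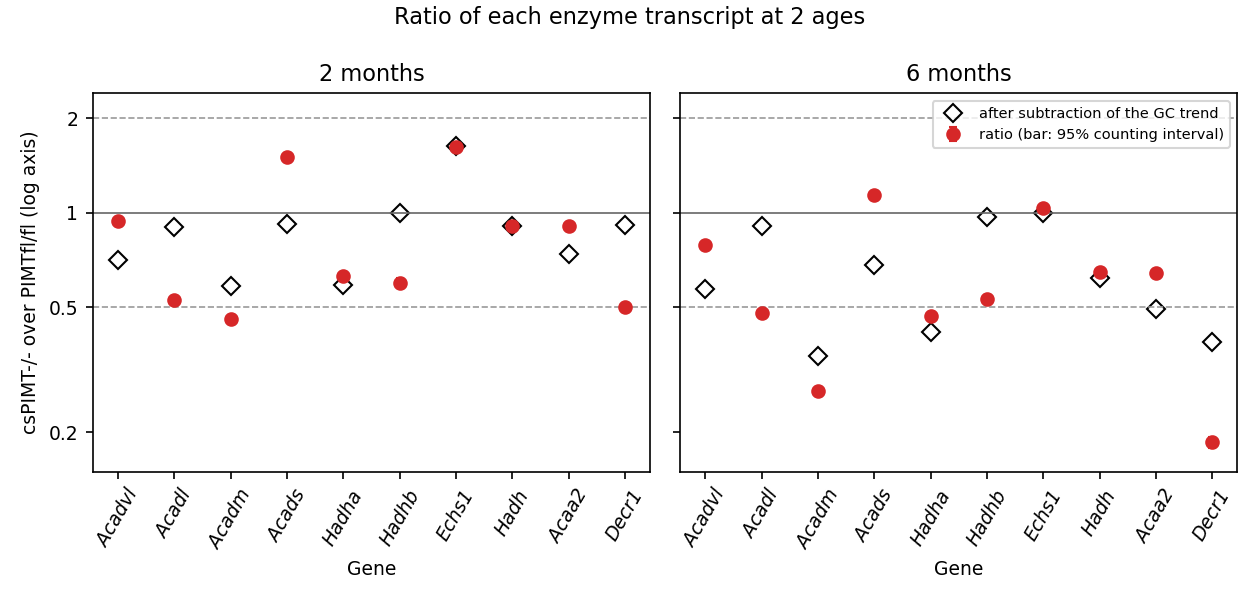
Ratio of csPIMT-/- over PIMTfl/fl (log axis) for each enzyme at 2 months and 6 months, as measured (red points, bars for the 95% counting interval, mostly smaller than the symbol) and after subtraction of the trend with GC content (open diamonds). The line at 1 marks no difference and the dashed lines mark 2-fold. Decr1 reached 0.186 and Acadm 0.272 at 6 months, while Acads and Echs1 lay above 1 at 2 months.

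The ratio to the control of the same age was lower at 6 than at 2 months for all 10 enzymes. This did not hold for Acadl after GC adjustment, at 0.900 and 0.911, nor for Echs1 against the control of the other age, at 1.28 and 1.30. The step was largest for Decr1, whose 6-month ratio was 0.373 times that of 2 months, followed by Acadm at 0.593 times, and smallest for Acadl at 0.912 times. The share of all genes with a lower ratio at 6 than at 2 months was not counted. The median ratio of all genes was 0.980 at 2 months and 0.977 at 6 months. All ratios at 2 months rest on the libraries that stood apart, and the difference between ages has no replicate check. Between the csPIMT-/- libraries alone, all 10 were lower at 6 months than at 2 months, where 48.8% of all genes were. The ratio of 6 over 2 months ran from 0.324 for Decr1 and 0.487 for Acaa2 to 0.780 for Echs1. Between the control libraries 8 of 10 were lower at 6 months, where 49.3% of all genes were. These ran from 0.675 for Acaa2 to 0.906 for Hadh, and Acadm and Echs1 were higher, at 1.10 and 1.19.

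Reads of the 10 enzymes together made up 0.886% of all reads in the control of 2 months and 0.666% in the csPIMT-/- library of 2 months. At 6 months they made up 0.736% and 0.416%. The exact binomial 95% intervals of these shares, which cover counting error only, were 0.883% to 0.889%, 0.663% to 0.669%, 0.733% to 0.739% and 0.414% to 0.418%. The csPIMT-/- library of 2 months thus lay below both controls, and that of 6 months lower still.

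Per kilobase of transcript, Acaa2 was the most abundant of the enzymes in every library, at 36003 and 33469 normalized counts per kilobase in the control and csPIMT-/- library of 2 months and 25444 and 16762 in those of 6 months. Acadvl ranked second in all 4 libraries. Below these the order differed between genotypes. Acadm ranked 5 and 3 of 10 in the controls of 2 and 6 months and 8 in both csPIMT-/- libraries. Echs1 ranked 7 in both controls and 3 in both csPIMT-/- libraries. Without replicates it cannot be said which neighbours in this order differ beyond the spread between hearts.

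The same is seen in quotients of reads within a library, which do not depend on the scaling between libraries. The pairs were chosen after their values were seen and are given as a description. Acads over Acadm was 0.434 in the control and 1.42 in the csPIMT-/- library at 2 months, and 0.315 and 1.33 at 6 months. Both csPIMT-/- hearts had more reads on the short-chain than on the medium-chain gene, and both controls fewer. Acadvl over Acadl was 1.62 and 2.89 at 2 months and 1.77 and 2.90 at 6 months. Echs1 over Decr1 was 0.733 and 2.38 at 2 months and 1.03 and 5.73 at 6 months. In each of these 3 pairs the gene of higher GC content is the numerator. The same holds for Hadha over Hadhb, given above, which differed little between genotypes. Echs1 over Hadh, with GC contents of 50.5% and 50.6%, was 0.634 and 1.14 at 2 months and 0.836 and 1.34 at 6 months.

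**Figure D3:**
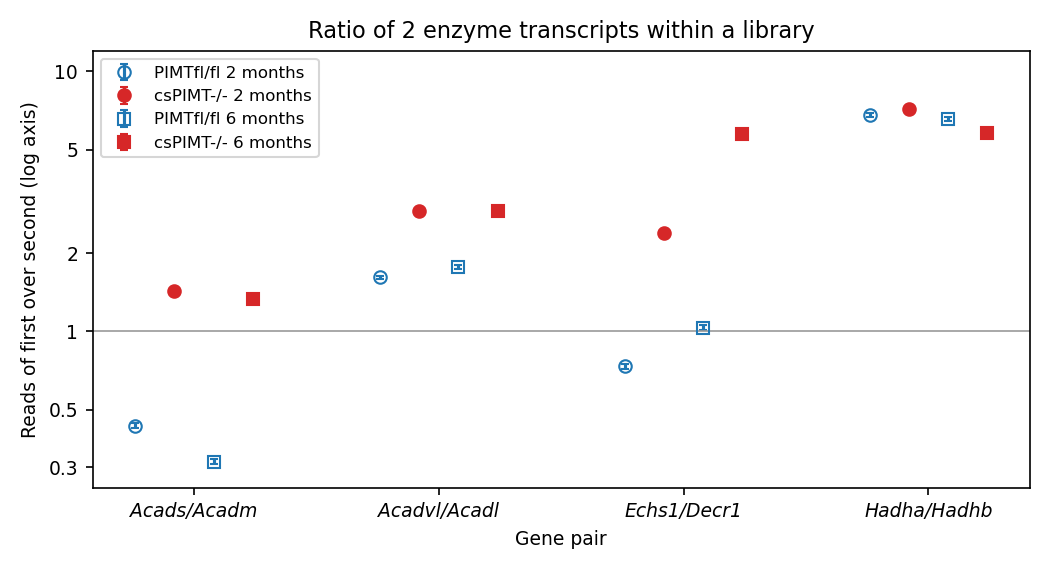
Reads of one enzyme gene over those of another within the same library (log axis), for 4 pairs, with open symbols for PIMTfl/fl, filled symbols for csPIMT-/-, circles for 2 months and squares for 6 months. Bars are 95% counting intervals, mostly smaller than the symbol. Acads over Acadm crosses 1 between genotypes, from 0.434 to 1.42 at 2 months, while Hadha over Hadhb stays between 5.81 and 7.16.

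The differences between enzymes went along with the GC content of their transcripts. Across the 10 genes, Spearman's rho of the log2 ratio with GC content was 0.733 at 2 months and 0.697 at 6 months, and across all genes with a GC value it was 0.594 (13748 genes) and 0.620 (13787 genes). These are correlations across genes of the same libraries, which are not independent replicates, and no p is given. After the trend of all genes was subtracted, Acadl, Hadhb and Decr1 moved from ratios of 0.50 to 0.60 to ratios of 0.900 to 0.998 at 2 months. At 6 months, 4 enzymes were then more than 2-fold lower, Acadm, Hadha, Acaa2 and Decr1, where 12.8% of all genes were, and at 2 months none was, where 11.2% of all genes were. After this subtraction 9 of 10 enzymes had a ratio below 1 at 2 months, where 48.7% of all genes did, and 10 of 10 at 6 months, where 49.5% did, with medians of 0.903 and 0.596 beside 1.02 and 1.01 for all genes. The origin of the GC trend was not tested. Hadha and Acadm kept ratios between 0.350 and 0.590 after it was subtracted.

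**Figure D4:**
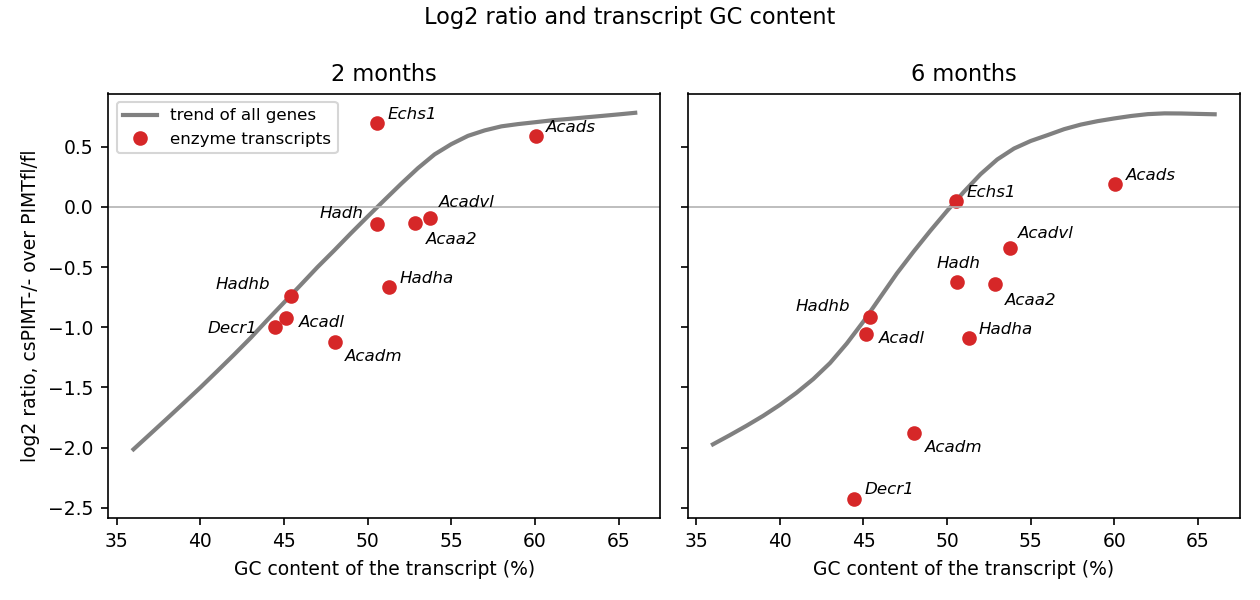
The log2 ratio of csPIMT-/- over PIMTfl/fl at 2 months and 6 months plotted against the GC content (%) of each enzyme transcript (red points), with the lowess trend of all genes as a grey line. At 6 months Decr1 and Acadm lie farthest below the line and Echs1 and Hadhb lie close to it, and at 2 months Echs1 lies above it.

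Nuclear receptors of the PPAR family bind repeats of the motif AGGTCA next to their target genes, so windows from 250 bases before to 50 bases after the RefSeq start were searched on both strands in GRCm38.p6. A window was found for 8 of the 10 enzymes, and not for Acaa2 and Decr1. AGGTCA occurred in 3 of 8, those of Acadm, Acadvl and Echs1, beside 16.3% of all 32851 windows. A direct repeat of 2 copies of AGGTCA with 1 base between them (DR1) occurred in 0 of 8 and in 0.0396% of all windows. Only exact copies within the window were searched, and for so rare a motif 0 of 8 tells nothing about these genes. The GC box GGGCGG occurred in 6 of 8 and in 35.7% of all windows. AAGGTCA, which contains AGGTCA, occurred in the window of Acadm and in 4.72% of all windows. The 3 stretches with AGGTCA are shown because these genes had ratios on both sides of 1, written on the minus strand, on which each gene is transcribed, with AGGTCA or its reverse complement in capitals. They are chr3:153944857-153944893 for Acadm, chr7:140116477-140116534 for Echs1 and chr11:70015480-70015545 for Acadvl.
Acadm: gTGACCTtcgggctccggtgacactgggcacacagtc
Echs1: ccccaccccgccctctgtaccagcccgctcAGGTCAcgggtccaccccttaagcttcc
Acadvl: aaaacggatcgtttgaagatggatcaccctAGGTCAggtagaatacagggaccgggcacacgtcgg
At 2 months the ratios of these 3 genes were 0.458, 1.62 and 0.941, so a match went with no single direction. A match describes these letters only.

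Around the 10 enzymes, 45 other genes of the pathway in 6 lists were examined, and in limma over both ages 8 of them fell, 3 rose and 34 did not pass. The 8 that fell were 17.8% of the 45, beside 18% of all genes tested, and the 3 that rose were 6.67%, beside 12.2% of all genes. The list counts below are to be read against these same shares of all genes, 18% lower and 12.2% higher. In the electron transfer list 2 of 3 fell, where 18% of all genes did. Etfa and Etfdh, which pass electrons from the acyl-CoA dehydrogenases to the respiratory chain, had ratios of 0.419 and 0.471 at 2 months and 0.289 and 0.323 at 6 months. After GC adjustment these were 0.724 and 0.659 at 2 months and 0.555 and 0.467 at 6 months. Their adjusted p in limma was 0.0143 and 0.0202. Etfb, the partner subunit of Etfa, had ratios of 1.14 and 1.02, or 0.732 and 0.648 after GC adjustment, and did not pass (limma, adjusted p = 0.620).

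Of 10 auxiliary mitochondrial enzymes 3 fell, Acat1, Acot2 and Acot13, where 18% of all genes did, and none rose. Acat1, the acetoacetyl-CoA thiolase of ketone and isoleucine breakdown, had ratios of 0.575 at 2 months and 0.325 at 6 months (limma, adjusted p = 0.0315). After GC adjustment these were 0.949 and 0.587. The thioesterase Acot2, which frees fatty acids from CoA, had ratios of 0.480 and 0.519 (limma, adjusted p = 0.0243). Acot13, another thioesterase, had ratios of 0.618 and 0.537 (limma, adjusted p = 0.0447). Ech1, an isomerase for unsaturated chains, had ratios of 1.23 and 0.883, or 0.885 and 0.619 after GC adjustment, and Eci1, another such isomerase, 0.914 and 0.639. Neither isomerase passed.

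Among 8 further genes of the acyl-CoA dehydrogenase family 1 rose, Acad12 (limma, adjusted p = 0.0413). Its ratios were 3.03 at 2 months and 1.49 at 6 months, or 2.22 and 1.06 after GC adjustment. Ivd, which acts in leucine breakdown, had ratios of 2.66 and 1.06, or 2.54 and 0.963 after GC adjustment. Acad11 had ratios of 1.23 and 0.717, or 1.58 and 0.924 after GC adjustment. Neither Ivd nor Acad11 passed. None of 7 genes of the carnitine shuttle and acyl-CoA synthesis passed in either direction. Their median ratio was 0.862 at 2 months and 0.685 at 6 months. Acsl1, which activates long-chain fatty acids, had ratios of 0.621 and 0.465 (limma, adjusted p = 0.0562), Crat 0.976 and 0.637, and Cpt2, the inner membrane carnitine transferase, 0.944 and 0.627. The GC-adjusted ratios were 0.722 and 0.532 for Acsl1, 0.714 and 0.452 for Crat, and 0.785 and 0.493 for Cpt2.

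The peroxisome holds its own β-oxidation enzymes, and of 8 such genes 1 rose, the thiolase Acaa1a (limma, adjusted p = 0.0364). Its ratios were 2.13 at 2 months and 1.54 at 6 months, or 1.31 and 0.932 after GC adjustment. Scp2, the sterol carrier protein, had ratios of 0.812 and 0.497, or 1.44 and 0.986 after GC adjustment, and did not pass (limma, adjusted p = 0.121). The list median was 1.51 at 2 months and 0.936 at 6 months, while that of the 10 mitochondrial enzymes was 0.755 and 0.584. A difference between the lists was not tested.

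Of 9 nuclear receptors and coactivators 3 fell, Ppargc1a, Ppargc1b and Med1, where 18% of all genes did, and 1 rose, the orphan receptor Esrra, where 12.2% of all genes did. Ppargc1a, the coactivator PGC-1α, had 6755 normalized counts in the control and 1730 in the csPIMT-/- library at 2 months, and 4585 and 2104 at 6 months. Both csPIMT-/- libraries were below both controls, with ratios of 0.251 and 0.447 (limma, adjusted p = 0.0165). The GC-adjusted ratio of 6 months was on the other side of 1, at 1.24. The related coactivator Ppargc1b had ratios of 0.590 and 0.412 (limma, adjusted p = 0.0405), or 0.372 and 0.257 after GC adjustment. The Mediator subunit Med1 had ratios of 0.519 and 0.481 (limma, adjusted p = 0.0254), or 0.752 and 0.729 after GC adjustment. Esrra had ratios of 1.55 and 1.75 (limma, adjusted p = 0.0425) and of 0.935 and 1.03 with the GC trend subtracted. Rxra, the partner of PPARα, had a ratio of 1.47 at both ages, or 0.942 and 0.935 after GC adjustment, and did not pass (limma, adjusted p = 0.0739).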

How the data were processed

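RNA-seq libraries of polyadenylated heart RNA were sequenced as single-end reads of 50 bases from directional libraries. Per the methods and the submitters' processing notes, the authors checked reads with FastQC, trimmed adapters, removed poor and ribosomal reads, aligned to mm10 with STAR and counted with htseq-count (HTSeq 0.6.1p1) on a UCSC annotation. The deposited values are counts normalized with DESeq2, a signal per gene and not raw reads. One of the 4 value columns is headed as read counts but is not whole and was treated like the others.

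In every library 100% of values were whole multiples of the smallest value above 0 (tolerance 1e-06 reads), and division by it gave reads. Ratios were taken for genes that reached 10 reads in either library, with median-of-ratios scaling and a pseudocount of 0.5 reads on the log2 scale. limma 3.58.1 was run on log2 values (TMM, pseudocount 1, mean trend, genotype and age, Benjamini-Hochberg over all genes), with a prior of 4.57 degrees of freedom. Genes entered with at least 10 counts in enough libraries and 15 in total (edgeR 4.0.16). DESeq2 1.42.0 and edgeR were run on recovered reads as alternatives. GC trends were lowess curves with a span of 0.3 on GRCm38 transcripts. Scripts were tested on simulated data. No batch is given in the labels.

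The 10 enzymes and all lists were chosen with earlier results of these data known, and the Y-linked, Xist and Dvl2 values were added after the libraries were examined. Named genes were the 10 enzymes, Tgs1 and, of each of the 6 other lists, the 3 with the highest mean normalized count plus any past 2-fold in opposite directions at the 2 ages, of which there were none. One gene that this rule covers is not reported here. Acot2, Acot13, Ppargc1b, Med1 and the single markers were named after their values were seen. Adgre1 was not found by symbol, so that 4 of 5 leukocyte markers were summed. Promoter and intergenic sequence came from RefSeq and GRCm38.p6.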

Additional observations from a re-analysis of the deposited data

Results flagged for a closer look

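For 2 of the genes named above from the related lists, the ratio of csPIMT-/- over control lay on opposite sides of 1 at the 2 ages. Their counting intervals exclude 1. Ech1 had a ratio of 1.23 at 2 months and 0.883 at 6 months, or 0.885 and 0.619 after GC adjustment, where both lie below 1. Acad11 had a ratio of 1.23 at 2 months and 0.717 at 6 months. Some genes of these lists that were not named above did so too. Among them were Gcdh, at 2.23 and 0.750, and Ehhadh, at 6.38 and 0.835, or 8.99 and 1.22 after GC adjustment. The difference between ages was not tested, since each value rests on 1 library per group.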

How the results depend on the processing

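No paired analysis was possible because each group had 1 library, and leaving out 1 library would leave the limma model without residual degrees of freedom. At 2 months the number of enzymes more than 2-fold lower was 1. It became 2 with TMM and with scaling to total reads, and 0 with the GC trend subtracted. Of all 15152 genes, 3531 were more than 2-fold lower with TMM and 3733 with scaling to total reads. At a threshold of 1.5-fold 5 enzymes were lower at 2 months, and 2 were higher in place of 0. At 6 months the 4 lower became 7 at 1.5-fold, 6 with the control of 2 months and 5 with both controls summed. Of all genes, 3385 of 15209 were more than 2-fold lower with the control of 2 months, and 3940 of 15686 with both controls summed. The share of all genes past 1.5-fold was not counted, so the enzyme counts at that threshold have no background. The median log2 ratio at 2 months, -0.40, was -0.47 with scaling to total reads, -0.38 on the deposited scale, -0.15 with the GC trend subtracted, -0.20 with the control of 6 months and -0.33 with both controls summed. At 6 months, where it was -0.78, it was -0.74 on the deposited scale, -1.17 with the control of 2 months and -0.99 with both controls summed. The 4 enzymes called by limma became 0 with the GC trend subtracted, 0 without the mean trend and 2 with genotype alone. For comparison edgeR called 3 enzymes and DESeq2 called 5. Of all 14935 genes tested, the fit with genotype alone called 2690 lower, edgeR 2508 and DESeq2 2994. Over all genes limma called 2687 lower and 1825 higher, and 0 in either direction in the fits with the GC trend subtracted and without the mean trend. More than 2-fold at 2 months were 3492 genes lower and 2487 higher, or 1537 and 2005 with the GC trend subtracted, and at 6 months 3917 and 2428, or 1764 and 1887. The cause was not tested.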
